A study of Rattus norvegicus with 2 samples.

Results

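The broad H2Aub domains described here are the wide peaks of 1 chromatin immunoprecipitation sequencing (ChIP-seq) library from ischemic rat myocardium. A peak is an interval in which fragments pulled down by the antibody stacked above the local background. The members were chosen by width, as peaks of at least 2000 bp on chromosomes 1 to 20, leaving out those wholly inside 4 windows. These windows, on chromosome 7 (144.45 to 144.72 Mb), chromosome 3 (61.5 to 61.75 Mb), chromosome 10 (84 to 84.28 Mb) and chromosome 4 (82.05 to 82.4 Mb), were given as Hox clusters and were not checked against an annotation. The rule found 339 broad domains among 17044 peaks (1.99%), and left 16681 narrower peaks beside them. A further 24 wide peaks lay in the windows. Of the 17207 peaks in the whole list, the remaining wide ones were 1 on chromosome X and 1 on an unplaced scaffold.

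The tissue came from male rats with the left anterior descending coronary artery tied off for 30 min. There was 1 library made with an antibody against ubiquitinated H2A and 1 input library of chromatin without immunoprecipitation (n = 1 each). Strain, age and the number of animals behind each library were not given in the labels. No sham library was analysed here, so nothing below compares ischemia with healthy heart. The labelled tissue could not be checked against marker genes, the peaks cannot be assigned to cardiomyocytes or to the other cells of the heart wall, and a mark carried by fewer cells cannot be told apart from less mark per cell.

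H2Aub is histone H2A with a single ubiquitin attached. It is written by polycomb repressive complex 1, whose catalytic subunit is RING1A or RING1B, and it is erased by deubiquitinases. It is known mainly as a mark of silenced genes, and over genes that control development it can spread across wide stretches of chromatin together with the methylation of H3 lysine 27 laid down by polycomb repressive complex 2. The question addressed here is how the widest H2Aub intervals of this library were built, how high they rose over background, and where they lay relative to the other peaks. All statements describe 1 library pair. As width selected the domains, no test was run. The intervals given are 95% intervals within this library and hold no replicate error. Those of summit fragments of single peaks cover counting error only. Those of shares, medians and densities treat peaks as independent, and they are too narrow because neighbouring peaks are not.

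No gene is named and no sequence is printed. The submitters' processing notes name hg38, a human assembly, whereas the list holds chromosomes numbered up to 20, as in rat. Positions are therefore given as in the list, counted from 1, on a build that is not stated.

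The broad domains covered 1.05 Mb, which was 12.4% of the length covered by all peaks on these chromosomes. Their median width was 2639 bp (95% interval of the median 2544 to 2743 bp), and the middle 50% lay between 2288.5 and 3412 bp. Most were close to the limit. A width of 2000 to 2999 bp was found in 219 domains, 3000 to 4999 bp in 93, and at least 5000 bp in 27. The widest domain of each chromosome ranged from 3846 to 10682 bp. No break in the widths set the domains apart from the narrower peaks.

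**Figure D1:**
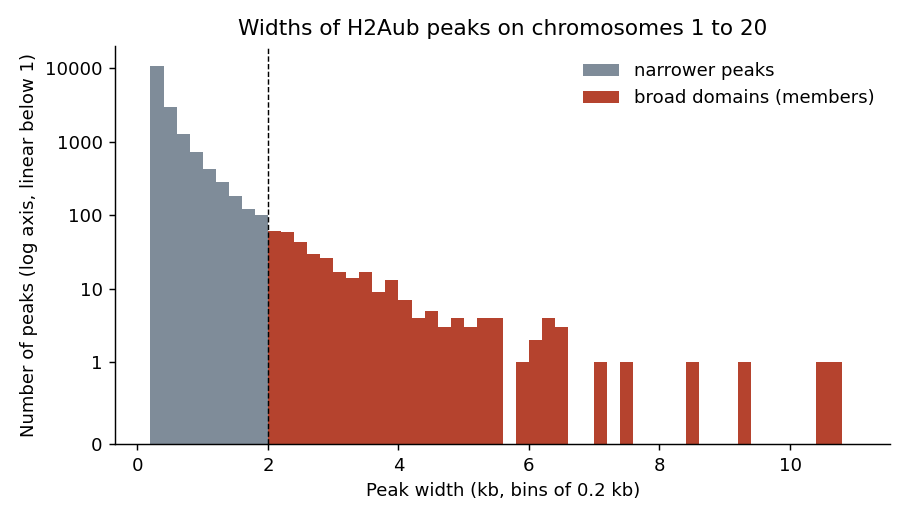
Number of H2Aub peaks by width (kb, bins of 0.2 kb) on a log axis that is linear below 1, with narrower peaks in grey, broad domains in red and the 2000 bp limit dashed. The counts fall steadily across the limit, and single domains reach up to 10682 bp.

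The 3 domains just inside it were chr20:47750124-47752125 (2002 bp), chr6:137578678-137580682 (2005 bp) and chr1:11905588-11907593 (2006 bp), with fold enrichments over background of 8.27, 7.03 and 3.11 on 19, 16 and 422 summit fragments. The last of these stood on a background of 135.0 fragments, far above the 1.42 of the other 2. The 3 peaks just outside were chr3:2801850-2803835 (1986 bp), chr15:40664887-40666874 (1988 bp) and chr1:263363672-263365663 (1992 bp), with fold enrichments of 7.52, 7.44 and 7.03 on 26, 17 and 16 fragments. Apart from the domain on high background, the fold enrichments on both sides lay between 7.03 and 8.27.

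The height of a domain was read at its summit, the position with the most stacked fragments. The fold enrichment at the summit had a median of 7.85 (7.57 to 8.27) in the broad domains, with quartiles of 6.61 and 9.09 and a range of 2.21 to 16.1. In the narrower peaks the median was 4.55, with quartiles of 4.03 and 5.31. At least 10-fold enrichment occurred in 44 of 339 broad domains (13.0%, Wilson interval 9.81 to 17.0%) and in 50 of 16681 narrower peaks (0.300%, 0.227 to 0.395%). The lower quartile of the broad domains thus lay above the upper quartile of the narrower peaks. Width and height were read from the same pileup of fragments, so these values describe how they went together and are no test of it.

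How many fragments stood behind a summit was solved from the deposited fold enrichment and p-value. The median broad domain had 22 fragments at its summit (21 to 22), with quartiles of 19 and 25, and the median narrower peak had 11. The exact 95% Poisson interval of a single count of 22 is 13.8 to 33.3 fragments, and that of 11 is 5.49 to 19.7 fragments. A summit of each kind at its median would thus overlap within counting error, although the quartiles of the groups were apart. The domains had a wide margin over the calling threshold. With 3 fragments fewer at the summit, none of the 339 domains (Wilson upper limit 1.12%) would have dropped below the lowest −log10 p listed, 3.70, whereas 36.4% of narrower peaks would have. With 8 fragments fewer, 27 domains (7.96%, 5.53 to 11.3%) and 88.0% of narrower peaks would have dropped below it.

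Median fold enrichment was higher in each wider class of peaks, but the steps next to and above the limit were not resolved. The median fold enrichment was 4.4 in peaks of 200 to 499 bp and 5.13 in those of 500 to 999 bp. It was 6.20 at 1000 to 1499 bp and 7.03 at 1500 to 1999 bp (6.90 to 7.44). Among the broad domains it was 7.61 at 2000 to 2999 bp (7.33 to 7.94), 8.08 at 3000 to 4999 bp (7.52 to 8.80) and 9.66 from 5000 bp on (7.93 to 11.0), so that the intervals of neighbouring classes overlapped, while the median summit held 20, 24 and 27 fragments. Within the 339 domains, Spearman's rho was 0.213 between width and fold enrichment and 0.408 between width and summit fragments, as a description of peaks that share 1 library and its depth. Width and height thus went together in part, without giving the same ranking. Of the 20 widest and the 20 highest in fold enrichment among the 339 domains, 6 were shared, which is 30% of each list. This overlap was not set against that of lists drawn at random.

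**Figure D2:**
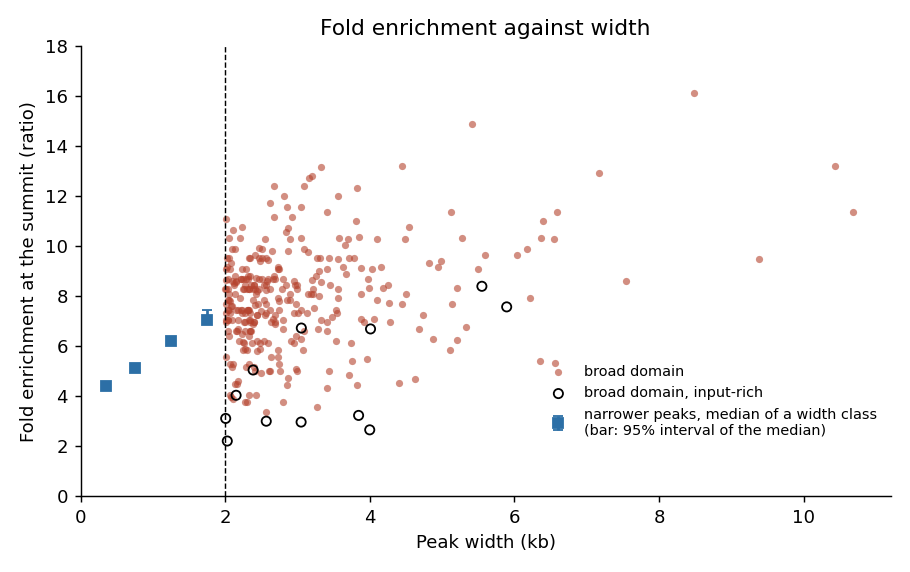
Fold enrichment at the summit (linear ratio) against peak width (kb), with each broad domain as a red point, input-rich domains as open circles and the medians of 4 classes of narrower peaks as blue squares with their 95% interval. The class medians climb from 4.4 to 7.03 below the dashed 2000 bp limit, and the domains spread from 2.21 to 16.1 above it.

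The 5 widest domains lay on 5 chromosomes. The widest, chr10:18123644-18134325, measured 10682 bp and had a fold enrichment of 11.4 on 30 fragments (20.2 to 42.8). The next, chr3:58172723-58183151, measured 10429 bp and had 13.2 on 35 fragments (24.4 to 48.7). Both stood above the upper quartile of fold enrichment of the broad domains. The following domain, chr8:68032814-68042190, measured 9377 bp with a fold enrichment of 9.47 on 33 fragments. At chr1:264497431-264505908, an interval of 8478 bp, the fold enrichment was 16.1 on 38 fragments (26.9 to 52.2), the highest of all 339 domains. The narrowest of these 5, chr17:72420023-72427565 with 7543 bp, had 8.62 on 24 fragments. Their fragment intervals overlapped, so the order of their heights was not resolved.

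Ranking by fold enrichment brought up narrower domains as well. After the 8478 bp domain on chromosome 1 came chr1:203508082-203513495, 5414 bp wide, with a fold enrichment of 14.9. A fold enrichment of 13.2 was listed at 3 domains, the 10429 bp one on chromosome 3 and those at chr17:8879857-8884307 (4451 bp, 35 fragments) and chr2:198595236-198598554 (3319 bp, 44 fragments). The last of these had the most fragments of the 5 and was narrower than the upper quartile of width.

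The height was not always in the middle of a domain. The summit lay at a median distance of 18% of the width from the centre (16 to 20.5%), against 17.6% in narrower peaks. It was in the central 20% of the width in 28.9% of domains and within 10% of an edge in 24 domains (7.08%, 4.80 to 10.3%), against 30.4% and 6.94% of narrower peaks. The domains were thus no more centred than narrower peaks of any height. Peaks outside the windows with summit fragments within the quartiles of the broad domains were also compared. Here the summit was within 10% of an edge in 8.70% of domains (5.42 to 13.7%). The share was 2.73% in narrower peaks (1.73 to 4.28%), so the intervals did not overlap. The central share was 29.3% (23.2 to 36.3%) against 34.1% (30.6 to 37.8%), with overlapping intervals. In 2 of the domains named above the summit was strongly off centre, at 80.6% of the width in the 8478 bp domain on chromosome 1 and at 93.6% in the 4451 bp domain on chromosome 17.

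The local background was read from the same solution. The smallest background, 1.42 fragments, was taken as the genome-wide floor, and it applied to 97 broad domains (28.6%, 24.1 to 33.6%) and to 47.5% of narrower peaks (46.8 to 48.3%). A background of at most 2 times the floor was found in 86.1% of domains and 94.8% of narrower peaks. Among peaks with 19 to 25 summit fragments, the floor share was 27.2% in broad domains (n = 184, 21.3 to 34.0%) and 25.5% in narrower peaks outside the windows (n = 659, 22.3 to 29.0%), with overlapping intervals. A background of at most 2 times the floor was found in 90.2% of these domains (85.1 to 93.7%). It was found in 78.9% of these narrower peaks (75.6 to 81.9%), so within the band the order was reversed. Most domains thus stood on little input signal.

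A few stood on much more. The background exceeded 10 times the floor in 12 broad domains (3.54%, 2.04 to 6.08%) and in 117 narrower peaks (0.701%, 0.586 to 0.840%), called input-rich here. The 12 domains lay at 6 places, so they are not 12 separate cases. The group at chr4:77401841-77451354 held 4 of them, with 226 to 354 fragments at the summits over backgrounds of 48.3 to 60.4. Their fold enrichments of 4.04 to 6.72 all lay below the broad domains' median of 7.85, although their pileups were more than 10 times the median. At chr1:11905588-11913126 the backgrounds of 2 domains reached 135.0 and 178.7 fragments, and the fold enrichments were 3.11 and 2.65.

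Input-rich domains led the ranking by −log10 q, the significance of the summit over its background within the library. The 5 domains with the highest −log10 q were all input-rich. The first 2 were chr4:77401841-77404892, with a −log10 q of 160.4, and chr4:77405107-77409115, with 148.4. They were followed by chr2:52996430-53001978 with 124.9, chr4:77409438-77411822 with 107.4 and chr13:89437888-89443779 with 91.0. Of the 20 highest by −log10 q, 10 were input-rich, against none of the 20 highest by fold enrichment and 2 of the 20 widest. Why the input was high at these places was not tested. Without the 12 domains the median fold enrichment of the other 327 was 8.01 and the median summit held 21 fragments.

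Broad domains rarely stood alone. Another peak lay within 10 kb of 318 of 339 domains (93.8%, 90.7 to 95.9%) and of 72.0% of narrower peaks (71.3 to 72.7%). A peak within 10 kb on both sides was found for 74.0% of domains (69.1 to 78.4%) and 34.3% of narrower peaks. The median gap to the nearest peak was 282 bp (258 to 305 bp) for domains and 1338 bp for narrower peaks, where the smallest gap in the list was 150 bp. The domains were thus flanked at close range, mostly on both sides.

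As height and width go together, broad domains and narrower peaks were also compared within the band of 19 to 25 summit fragments, the quartiles of the domains, with peaks inside the windows left out. The band held 184 broad domains, with a median of 22 fragments and a median fold enrichment of 8.27, and 659 narrower peaks, with medians of 20 fragments, 7.53-fold and 977 bp. A peak within 10 kb was found for 94.6% of these domains (90.3 to 97.0%) and 86.9% of these narrower peaks (84.2 to 89.3%). On both sides it was found for 72.3% (65.4 to 78.2%) and 58.7% (54.9 to 62.4%). The intervals did not overlap in either case. The domains of the band still had slightly higher summits, so height and width were not fully separated.

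The flanks were then measured base by base, with peaks inside the windows left out of the narrower sets. In the first 1 kb beyond the edges, other peaks covered 33.4% of bases around all broad domains and 11.3% around all narrower peaks. In the band of 19 to 25 fragments this share was 33.7% around broad domains and 25.5% around narrower peaks. Around all broad domains it was 36.8% at 1 to 2 kb, 25.1% at 3 to 5 kb and 17.0% at 5 to 10 kb. At 5 to 10 kb the shares within the band were 16.5% around domains and 10.6% around narrower peaks. At 10 to 20 kb they were 6.43% and 5.92%, and at 20 to 50 kb 2.06% and 2.14%. Most of the difference within the band thus lay inside 10 kb. Against all narrower peaks, the share around all broad domains was 6.04% against 3.41% at 10 to 20 kb and 2.29% against 2.03% at 20 to 50 kb. These shares have no replicate error, and flanks that overlap were counted more than once.

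**Figure D3:**
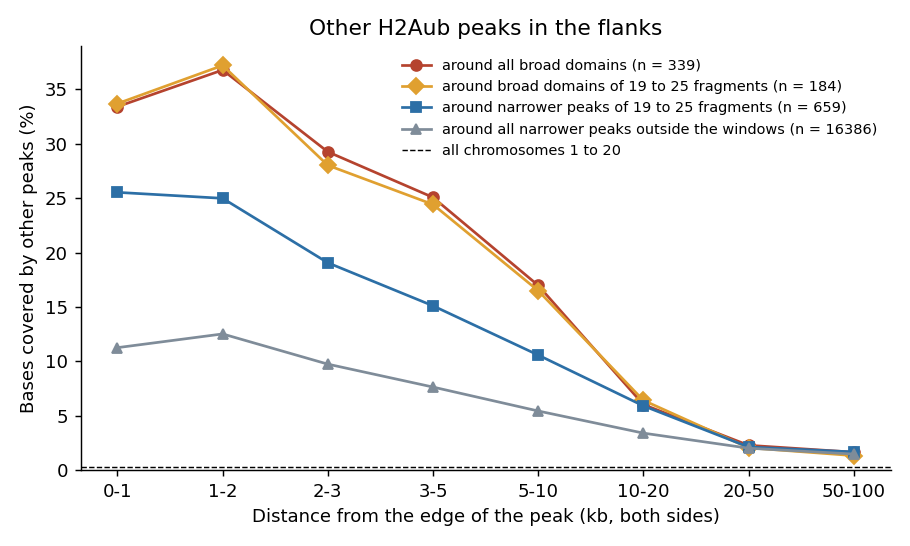
Percent of bases covered by other peaks against distance from the edge of a peak (kb, both sides), around all 339 broad domains (red), 184 broad domains of 19 to 25 summit fragments (orange), and, outside the windows, 659 narrower peaks of 19 to 25 fragments (blue) and all 16386 narrower peaks (grey). The red and orange lines run above the blue one up to 10 kb and lie close to it beyond. The dashed line is the share over chromosomes 1 to 20, 0.331%.

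Many domains were pieces of longer stretches. When peaks at most 500 bp apart were joined, the 339 domains fell into 303 stretches with a median width of 3870 bp. Of these, 197 (65.0%) held more than 1 peak, 103 were at least 5 kb long and 21 at least 10 kb. The longest, chr3:58162252-58183151, ran over 20900 bp, was made of 3 broad domains and no other peak, and was covered by peaks over 97.2% of its length. The next, chr3:95697512-95715881, ran over 18370 bp and was made of 3 broad domains and 9 shorter peaks that together covered 85.7%. The width of a single listed interval was thus often shorter than the joined stretch around it.

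Runs of peaks with gaps of at most 10 kb were also counted. A run of at least 5 peaks held 233 broad domains (68.7%, 63.6 to 73.4%), against 34.1% of narrower peaks. In the band of 19 to 25 fragments the share was 68.5% for broad domains (61.4 to 74.8%) and 53.0% for narrower peaks outside the windows (49.1 to 56.7%). Such runs numbered 669, of which 156 (23.3%) held a broad domain and 60 held more than 1. The share of runs with a broad domain was 0.448% for peaks without a neighbour (21 of 4691) and 3.11% for runs of 2 to 4 peaks. It was 18.1% for runs of 5 to 9 peaks (15.0 to 21.8%), 35.5% for 10 to 19 (28.4 to 43.3%) and 44.8% for 20 or more (13 of 29, 28.4 to 62.5%). Longer runs offer more peaks that could be wide. Counted per peak, broad domains made up 0.448% of peaks without a neighbour and 1.33% of peaks in runs of 2 to 4. The share was 3.93% in runs of 5 to 9, 4.51% in 10 to 19 and 2.46% in 20 or more. Per peak, the share was thus lower in runs of 20 or more than in runs of 5 to 9 or 10 to 19. Whether the rise with run length ends there cannot be read from these shares. The 319 peaks inside the windows counted towards the runs, but their 24 wide peaks did not count as broad domains. All 24 lay in runs of at least 5 peaks.

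The 156 runs were next described from inside. They were picked for holding a wide peak, so the length held by broad domains is no finding. The median run of this kind was 18293 bp long with 9 peaks, and its broad domains held a median of 45.9% of its covered length (42.3 to 49.3%). The highest fold enrichment of the run was in a broad domain in 95 of 156 runs (60.9%, 53.1 to 68.2%). The domains lay at an end of their run in 24 of 233 cases (10.3%, 7.02 to 14.9%), against 288 of their 1474 narrower run mates (19.5%, 17.6 to 21.6%). They were thus found at the outer edge less often than their run mates, with intervals that did not overlap.

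Many broad domains also lay near each other. Another broad domain was within 10 kb of 140 domains and within 100 kb of 170 (50.1%, 44.9 to 55.4%), so that most of the domains with a partner had it close by. How often narrower peaks had a broad domain at these distances was not computed. As 91.7% of narrower peaks had another peak within 100 kb, closeness to other broad domains cannot be called particular to the domains. Joined over gaps of at most 100 kb, the 339 domains made 240 groups, of which 169 held 1 domain, 50 held 2, 16 held 3, 3 held 4 and 2 held 5. The groups with the most members are described next, of which the third was taken as the one with the greatest covered length among the 3 groups of 4.

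At chr1:264892029-264978315, 5 broad domains lay in 86.3 kb as 2 separate clusters. Their fold enrichments were, in order, 3.39, 11.1, 7.52, 5.84 and 12.9, with 17, 26, 26, 25 and 32 summit fragments. The domain with 3.39 had a background of 4.32 fragments, and the highest, chr1:264971150-264978315, was also the widest of the group with 7166 bp. At chr2:201270215-201294019, 5 domains lay in 23.8 kb and, with 8 narrower peaks, covered 75% of it. Here the fold enrichments were 7.33, 7.70, 8.44, 9.45 and 11.7 along the chromosome, with 19, 24, 22, 22 and 31 fragments. The fragment intervals of all 5 overlapped, from 11.4 to 29.7 for the first and 21.1 to 44.0 for the last, so this order was within counting error. At chr14:35577265-35654424, 4 domains lay as 2 pairs in 77.2 kb, with fold enrichments of 8.89, 8.07, 9.09 and 11.0. Of the other groups of 4, that at chr3:59972647-59991210 filled 74.6% of 18.6 kb, and the other was the input-rich one on chromosome 4.

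**Figure D4:**
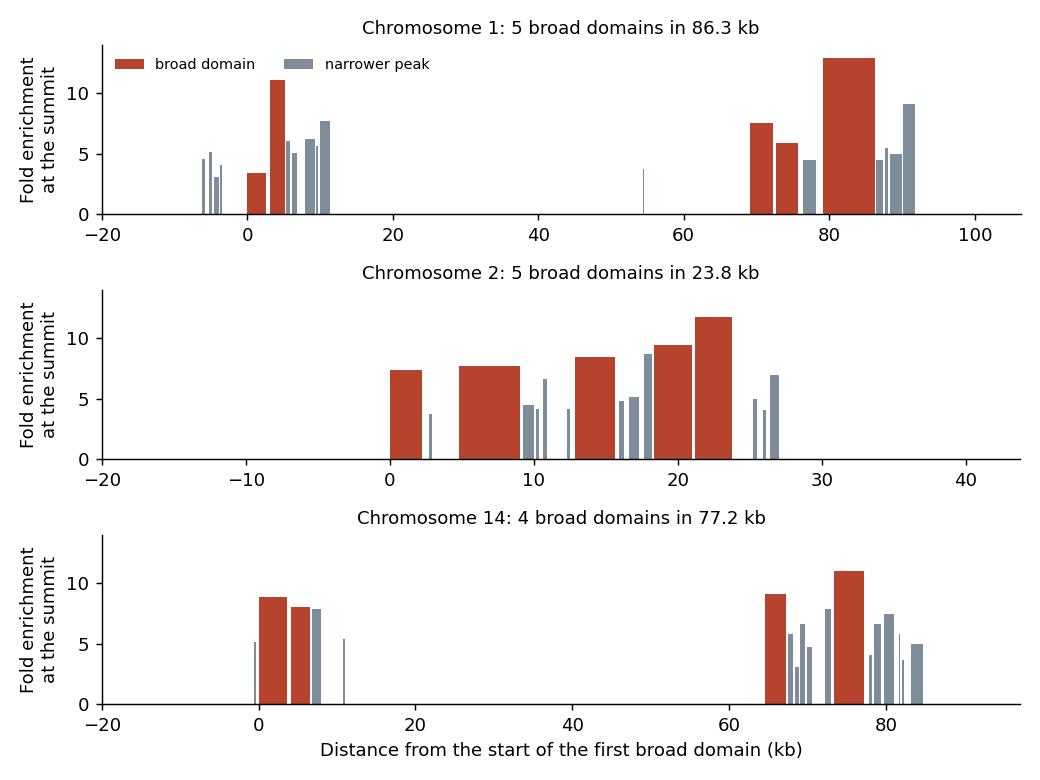
Fold enrichment at the summit (linear ratio) of each peak, drawn to scale along 3 groups of broad domains, against distance from the start of the first domain (kb). Red bars are broad domains and grey bars narrower peaks, and the bar width is the peak width. The domains on chromosomes 1 and 14 stand in 2 separate clusters each, while those on chromosome 2 follow each other within 23.8 kb.

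The 21 domains without another peak within 10 kb (6.19%, 4.09 to 9.28%) were shorter on the median. They measured 2002 to 3407 bp with a median of 2309 bp, against 2681.5 bp in the other 318. Their fold enrichment ranged from 3.90 to 12.4, with a median of 7.33 against 7.97, and their median summit held 19 fragments against 22. In 4 of them no peak lay within 100 kb. The most remote, chr3:138461365-138464280, was 537247 bp from the nearest peak. A broad domain in these data could therefore stand by itself. All 27 domains of at least 5000 bp had a neighbour within 10 kb (100%, 87.5 to 100%). This interval includes the 93.8% of all domains, so the widest were not set apart by it.

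Along the genome, broad domains were found on all 20 chromosomes at 0.133 per Mb (exact Poisson interval 0.119 to 0.148). Narrower peaks were found at 6.55 per Mb. Chromosome 3 held the most domains, 40 (0.227 per Mb, 0.162 to 0.310), and chromosome 18 the fewest, 2. Chromosome 10, with the highest density of narrower peaks (13.9 per Mb), had 23 domains or 0.209 per Mb. This was 157% of the density over all chromosomes, with an interval of 99.5 to 236% whose lower end fell just short of 100%. Without input-rich peaks the value was 163% (103 to 244%), with domains at most 10 kb apart counted once 178% (109 to 275%), with a limit of 1500 bp 197% (148 to 258%) and with a limit of 3000 bp 116% (42.4 to 252%). Whether chromosome 10 lay above 100% therefore depended on the setting.

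The share of peaks that were broad followed a different order. It was highest on chromosome 14 with 24 domains (4.45% of its broad and narrower peaks, 3.01 to 6.54%) and chromosome 2 with 34 (4%, 2.88 to 5.54%). On these chromosomes alone the interval lay wholly above the 1.99% of the whole. Without input-rich peaks the shares were 4.30% and 3.91%. Broad domains made up 25.1% of the covered length on chromosome 14 and 21.6% on chromosome 2. Both had few narrower peaks, 4.55 per Mb on chromosome 14 and 3.09 per Mb on chromosome 2, the lowest of all. Chromosome 10 and chromosome 12, the densest in narrower peaks, had shares of 1.48% and 1.52%. The lowest share was 0.583% on chromosome 18, from its 2 domains. Across the 20 chromosomes, Spearman's rho was 0.644 between the densities of broad domains and narrower peaks and −0.21 between the share and the density of narrower peaks, as a description of 1 library.

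**Figure D5:**
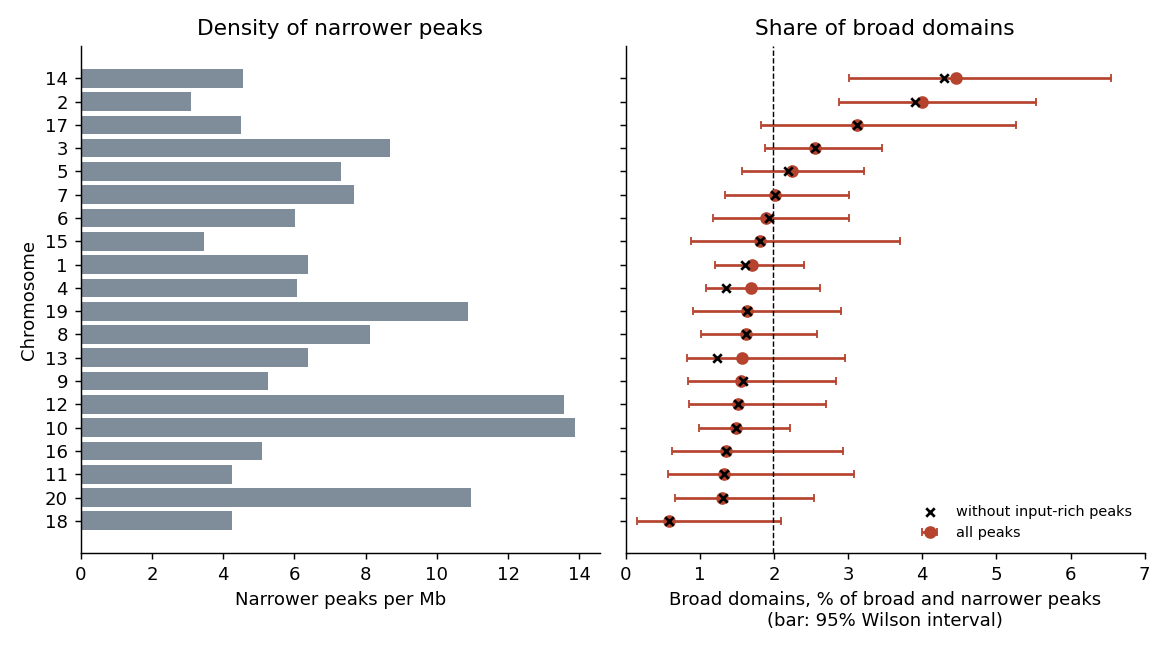
Left, narrower peaks per Mb for each chromosome; right, broad domains as a percent of broad and narrower peaks, with 95% Wilson intervals and crosses for the values without input-rich peaks. Chromosomes 14 and 2 stand above the dashed line at 1.99% with their whole interval, while the densest chromosomes, 10 and 12, lie at 1.48% and 1.52%.

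On a finer scale the domains were unevenly spread. Of 502 bins of 5 Mb with a peak, 165 held a broad domain, 46 held at least 3 and 12 held at least 5, and these 12 held 71 of the 339 domains. The bin with the most was 260 to 265 Mb on chromosome 1, with 10 broad domains among 125 narrower peaks. Both the domain with the highest fold enrichment and the first group described above lay there. Next came 140 to 145 Mb on chromosome 7, with 8 domains among 257 narrower peaks, and 55 to 60 Mb on chromosome 3, with 8 domains among only 25 narrower peaks. The latter held the 20900 bp stretch. These bins were picked after their counts were seen.

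The 24 wide peaks left out with the windows were much like the members in size and height. Their median width was 2958 bp (2368 to 3305 bp), their median fold enrichment 8.34 (7.49 to 9.09) and their median summit 21.5 fragments, and the first 2 intervals overlapped those of the broad domains. All 24 had another peak within 1 kb, against 284 of the 339 members (83.8%, 79.5 to 87.3%). They lay in 3 of the windows, 7 on chromosome 7, 8 on chromosome 3 and 9 on chromosome 10, and the window on chromosome 4 held 79 peaks but no wide one. Within 1 Mb of a window lay 1 member, on chromosome 10, and within 5 Mb lay 8, 8, 8 and 5 members for chromosomes 7, 3, 10 and 4. The 5 near the window on chromosome 4 included the 4 input-rich domains described above. The 5 Mb reach out on both sides of a window. Against 0.133 per Mb over all chromosomes, the counts within 5 Mb of the 4 windows are high. On chromosome 4 this rests on the 4 input-rich domains. Neighbouring domains are not independent, no interval was computed for these counts, and a link to the windows was not tested. Wide peaks were much denser inside the windows than outside. The windows span 1.15 Mb and held 319 peaks, of which the 24 wide ones made up 7.52% (5.11 to 11.0%), or 20.9 per Mb. Outside, the 339 broad domains were 2.03% of 16725 peaks (1.82 to 2.25%), or 0.133 per Mb.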

How the data were processed

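H2Aub ChIP-seq of ischemic rat myocardium (1 ChIP and 1 input library) was analysed from 1 peak list. The authors deposited, for each peak, its positions, a score, the fold enrichment at the summit (a linear ratio), a −log10 p and a −log10 q of the same summit. The score, as the authors deposited it, was the −log10 q times 10 without decimals, and it was not used further. Per the submitters' processing notes, bcl2fastq 2.17, Trimmomatic 0.33, Bowtie 1.1.2 and MACS2 2.1.0 were used, but their settings are not given in the sources used here. The notes name hg38, a human assembly, for rat samples, so the build is treated as not stated. The list gives no read totals, and the total depth is unknown.

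Summit fragments and local background were solved from the deposited fold enrichment, taken as (pileup + 1) / (background + 1), and the Poisson p-value, over whole pileups up to 4000 with a tolerance of 0.002 on −log10 p. All 17207 peaks were solved. Without the pseudocount, 29 met the tolerance. The solver was tested on simulated data. Libraries were amplified by PCR and no molecular identifiers are named in the labels, so stacked fragments may be copies of 1 molecule. Shares carry 95% Wilson intervals, counts exact Poisson intervals and medians order-statistic intervals (Python 3.11.15, numpy 2.4.6, pandas 2.3.3, scipy 1.17.1, matplotlib 3.10.9). Density per Mb was taken over the stretch between the outermost peaks of a chromosome.

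Domains named are the 5 widest, the 5 highest in fold enrichment and in −log10 q, 3 on each side of the limit and the first 3 groups by number of domains, and others are named only as extremes of a measure, seen in the values. The members, lists and measures were chosen with earlier results of these data known. With 1 library per kind, no replicate error and no test were possible. Genes, sequences and base composition were not analysed here.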

Additional observations from a re-analysis of the deposited data

How the results depend on the processing

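Of 62 recomputed values, 43 stayed within the error or within 1.5 times the count or length, and 19 moved. With a width limit of 1500 bp there were 633 domains, with a median fold enrichment of 7.44 and 20 summit fragments. With a limit of 3000 bp there were 120 domains over 0.519 Mb, with a median fold enrichment of 8.36, 24 fragments, 98.3% with another peak within 10 kb, 35% with another broad domain within 100 kb and 19.2% at the background floor. When peaks at most 500 bp apart were merged first, 793 intervals over 2.92 Mb reached 2000 bp, with a median fold enrichment of 7.33, 19 fragments, 82.5% with a neighbour within 10 kb and 40.7% at the floor. These changes follow from taking more, fewer or other intervals. The share with a neighbour within 10 kb was 78.1% when peaks with q of at most 1e-05 were kept and 81.4% with a fold enrichment of at least 5, as fewer peaks remained to be neighbours. Without the pseudocount the median summit held 28 fragments, but this setting met the deposited values in 1 of 339 domains. The density on chromosome 10 stayed inside its wide interval, between 116% and 198% of the whole. Its lower limit, 99.5%, was above 100% without input-rich peaks (103%), with a limit of 1500 bp (148%), after merging (154%) and with near domains counted once (109%), and below 100% in the other 3 settings. The median distance of the summit from the centre of the broad domains moved under no setting tried. Counting domains at most 10 kb apart once, a setting chosen after seeing the data, gave 260. Keeping only domains of 19 to 25 fragments, also chosen then, gave 94.6% with a neighbour within 10 kb. GC content and CpG ratio were not run. No paired analysis was possible because there is 1 ChIP library and no second group. The depth, 22 fragments at a median summit, does not resolve the order of single domains by height.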
